A study of Homo sapiens with 8 samples.

Results

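The human genes named ZNF plus a number and lying on chromosome 19 were followed in HCT116 cells treated with histone deacetylase inhibitors. RefSeq places 241 such genes on the chromosome, and 208 of them had at least 1 probe set annotated to that gene alone (401 probe sets). A gene was taken as expressed where the second highest of its 8 array values reached 4.49, the median of the whole table on the log2 scale. By that rule 129 of the 208 genes were expressed, each read from its probe set with the highest mean, and these 129 are the members described here, of 13381 genes tested in all. The other 79 fell below the filter. Just inside it lay ZNF837, whose second highest value was 4.52, and ZNF541, at 4.53. Just outside lay ZNF331, at 4.43, and ZNF493, at 4.42.

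HCT116 is an established line of human colorectal carcinoma cells. Cultures received largazole at 20 nM, SAHA at 2 µM, FK228 at 20 nM or vehicle for 10 h, and total RNA of each was hybridised to Affymetrix U133 2.0 arrays, with 2 arrays a group and 8 in all. Largazole and FK228 (romidepsin) are cyclic depsipeptide prodrugs that release a thiol able to bind the zinc of class I deacetylases, and SAHA (vorinostat) is a hydroxamic acid with a wider range among the zinc-dependent deacetylases. All groups share the cell line, the medium and the treatment time, and they differ in the agent, while the dose of SAHA differs from that of the depsipeptides. The labels say only that the work was done in duplicate and do not state whether the 2 arrays of a group came from separate cultures, so p-values measure the spread between these samples, which may be technical.

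Zinc finger genes of this family encode proteins with arrays of C2H2 fingers that bind DNA, and most on chromosome 19 also carry a KRAB box, which recruits the corepressor TRIM28 (KAP1). TRIM28 in turn brings the histone methyltransferase SETDB1, which writes the repressive mark H3K9me3 over transposable elements and other targets. The genes arose by repeated duplication and lie in clusters along the chromosome, so neighbours are often close relatives in sequence. Histone deacetylase inhibitors raise histone acetylation genome-wide and change the transcripts of many genes in both directions.

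The array medians lay between 4.47 and 4.51, and arrays of 1 group correlated with r of 0.9944 to 0.9963 over the probe sets tested, against 0.9414 to 0.9622 between treated and vehicle arrays. The number of arrays limits the precision, and the 95% confidence interval of a log2 difference had a median half-width of 0.257. Of 10 colorectal epithelial markers 9 passed the filter, among them EPCAM and KRT18. Of 5 blood cell markers, 4 of leukocytes and the erythroid HBB, only HBB passed, and PTPRC stayed between 2.40 and 2.90. Of 8 fibroblast and endothelial markers 5 passed. Among these COL1A1 lay at 7.66 to 8.56 in the 6 treated arrays, against 7.0 and 7.25 in the vehicle arrays, while COL1A2 and COL3A1, 2 defining fibroblast genes, were below the filter on every array. The summed log2 level of the 8 genes was 36.5 to 37.8 in treated and 36.4 and 37.5 in vehicle arrays, and the part of other cell types in the results was not tested. These are bulk cultures, in which fewer cells of a kind and less RNA per cell cannot be told apart. Of the 129 members 42 were read from probe sets whose suffix (_x_at or _s_at) marks probes that can match several transcripts. For such close relatives the signal of 1 gene can include that of another, and their values are uncertain to that extent.

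More of the zinc finger genes rose than fell with each compound. With largazole 40 of the 129 members rose (31%) and 25 fell (19.4%) at an adjusted p under 0.05 in limma, Benjamini-Hochberg over all probe sets tested, beside 21.9% higher and 23.2% lower among all genes tested. With SAHA 42 rose (32.6%) and 25 fell (19.4%), beside 22.1% and 25.2% of all genes. With FK228 46 rose (35.7%) and 30 fell (23.3%), beside 25.7% and 27.1%. Calls in either direction took in 50.4%, 51.9% and 58.9% of the members in that order of compounds, close to 45.2%, 47.4% and 52.8% of all genes. The median log2 difference over the members was 0.10 with largazole, 0.12 with SAHA and 0.16 with FK228, and over all genes tested it was 0.00, -0.02 and 0.01. The 3 comparisons share the 2 vehicle arrays, and no test of the members as a set was made. Leaving out the second vehicle array left 26 rises with largazole, and leaving out either largazole array or either vehicle array left 14 or 15 falls.

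Most of these changes were small. With largazole 2 members were called and at least 2-fold higher and 1 at least 2-fold lower. With SAHA these counts were 7 and 3, and with FK228 they were 13 and 3. Over all 13381 genes tested they were 582 and 638 with largazole, 574 and 753 with SAHA, and 826 and 1031 with FK228. The member at least 2-fold lower with largazole was ZNF114, which passed the filter through its 2 vehicle arrays alone. In 99, 98 and 101 of the 129 members the 2 arrays of largazole, SAHA and FK228 did not overlap the 2 vehicle arrays (76.7%, 76% and 78.3%), a share that was 74.4%, 73% and 76.2% over all genes tested.

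**Figure D1:**
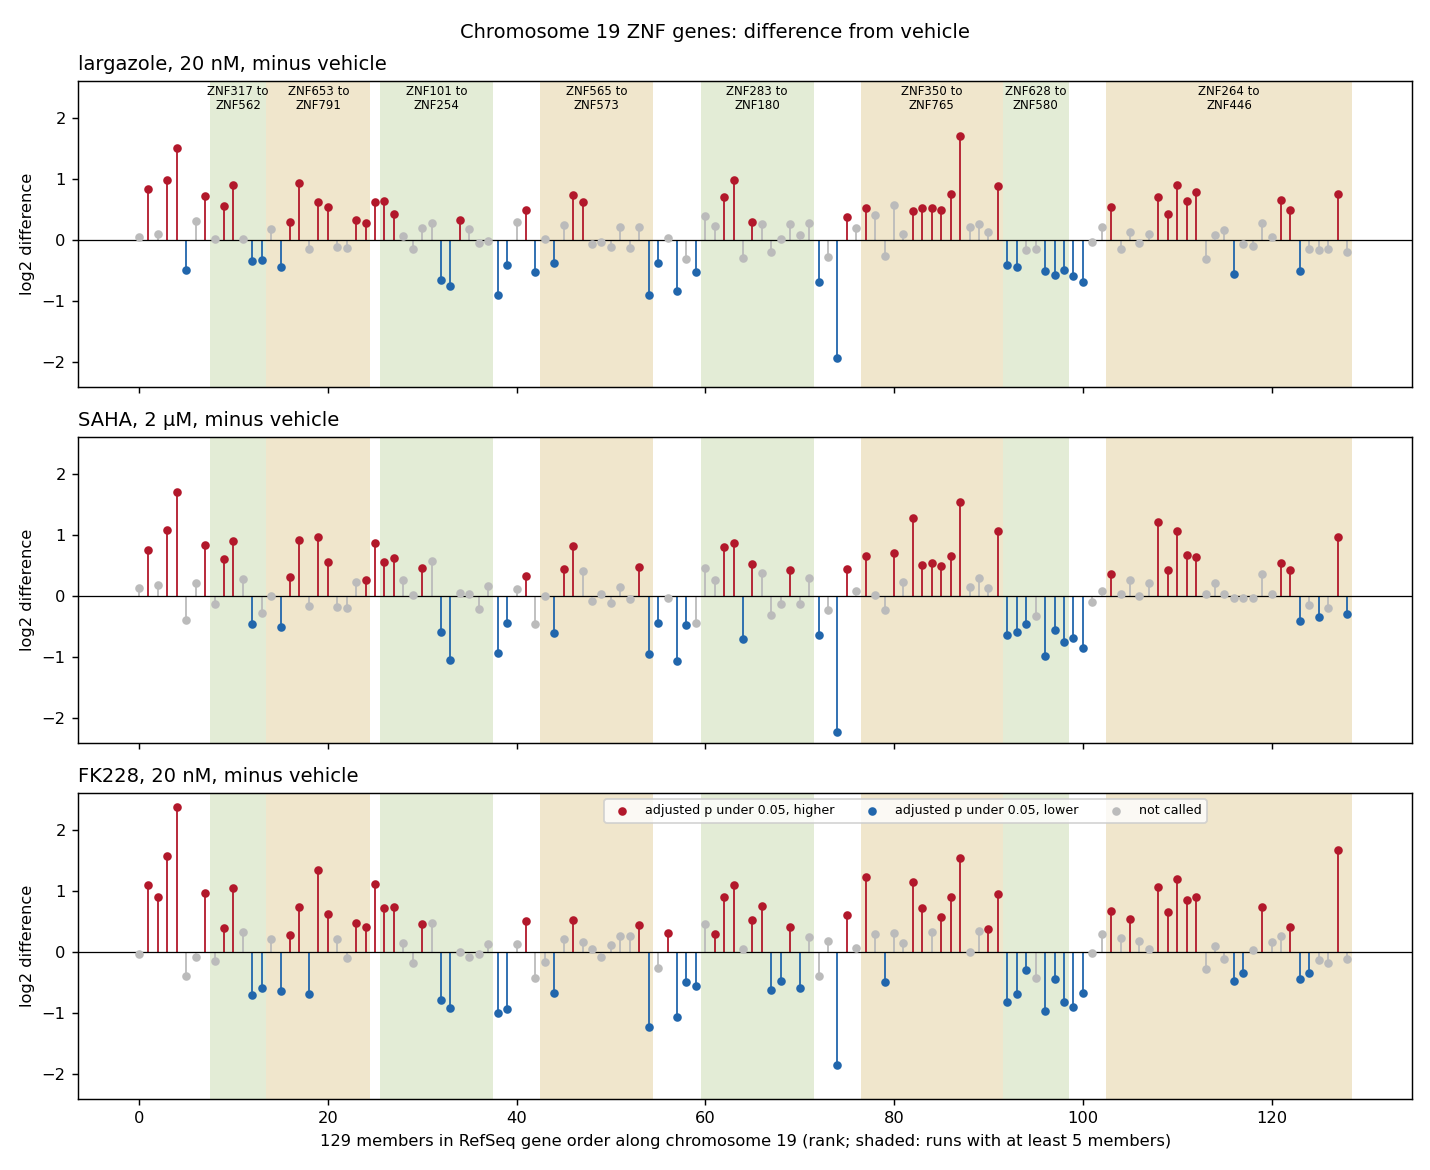
Each of the 129 members is a point at its rank in gene order along chromosome 19, with its log2 difference from vehicle on the vertical axis, in 1 panel per compound. Filled colours mark members with an adjusted p under 0.05 (higher or lower) and grey the rest, and shading marks the 8 runs of neighbours with at least 5 members. ZNF557, near the left end, is the tallest stem for SAHA and FK228, ZNF114 is the lowest with each compound, and the run from ZNF628 to ZNF580 holds downward stems only.

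ZNF genes elsewhere in the genome were split the other way. Of 176 expressed ZNF genes on other chromosomes 35 were higher and 52 lower with largazole, 39 higher and 59 lower with SAHA, and 41 higher and 67 lower with FK228. Their median log2 differences were -0.12, -0.11 and -0.17 with largazole, SAHA and FK228. Of the other 839 expressed genes of chromosome 19, 152 were higher and 158 lower with largazole, 131 and 193 with SAHA, and 211 and 171 with FK228. There the rises exceeded the falls with FK228 only. Only 5 relatives on the chromosome named ZFP, ZSCAN, ZIK, ZIM or ZKSCAN plus a number were expressed, and with each compound 1 of them rose and 1 fell. These are counts side by side, and the difference between the gene sets was not tested.

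**Figure D2:**
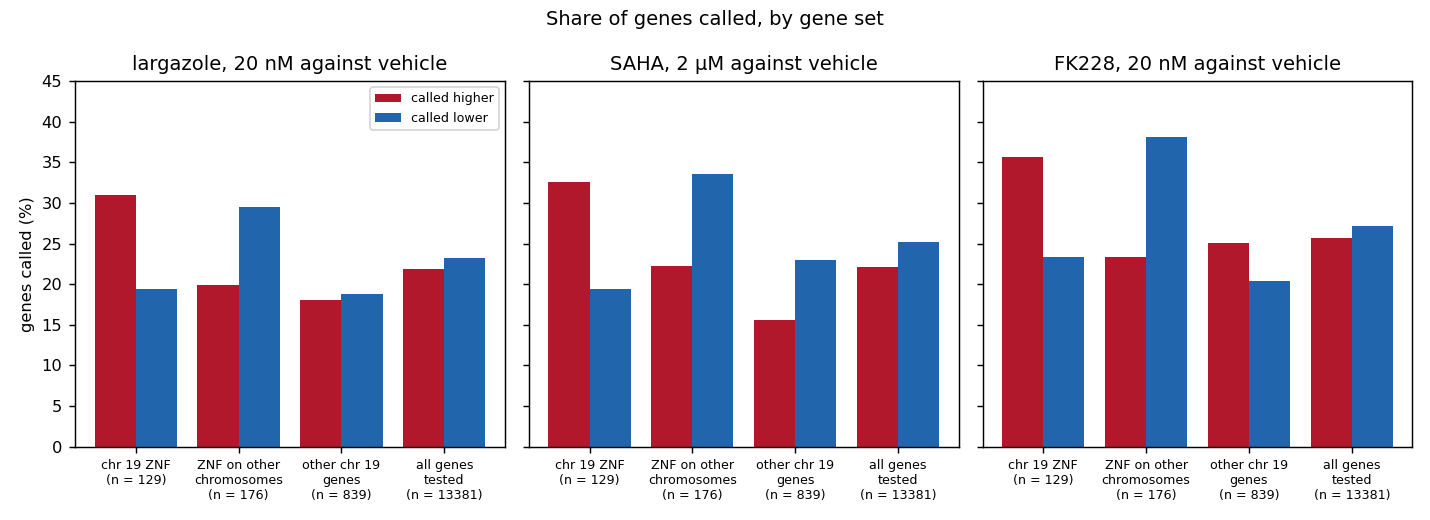
Bars give the percentage of genes called higher and lower against vehicle in each of 4 gene sets (the 129 members, 176 ZNF genes on other chromosomes, 839 other genes of chromosome 19 and all 13381 genes tested), with 1 panel per compound. In each panel the bar for higher exceeds that for lower among the members, and the reverse holds for ZNF genes on other chromosomes.

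ZNF557 rose further than any other member with SAHA and FK228. Its log2 level was 8.17 and 8.21 in largazole arrays, 8.37 and 8.43 in SAHA arrays and 9.03 and 9.12 in FK228 arrays, against 6.54 and 6.85 in vehicle arrays. No treated array overlapped the vehicle arrays. The differences of 1.5 ± 0.11, 1.70 ± 0.11 and 2.38 ± 0.11 (standard error) came to 2.83-fold, 3.26-fold and 5.21-fold, with adjusted p of 5.09e-05, 2.73e-05 and 4.07e-06 in limma. ZNF557 lies outside the runs of neighbours described below, as does ZNF77, which stood at 8.65 and 8.45 with largazole, 8.62 and 8.65 with SAHA and 9.04 and 9.21 with FK228, against 7.52 and 7.60 with vehicle. All 6 treated arrays of ZNF77 were above both vehicle arrays, by 0.99, 1.07 and 1.56 on average, and its other probe set rose by 1.10, 1.36 and 1.85.

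ZNF468 had the largest rise of any member with largazole. It measured 9.53 and 8.89 in largazole arrays, 9.17 and 8.94 in SAHA arrays and 9.22 and 8.89 in FK228 arrays, against 7.65 and 7.37 in vehicle arrays. The treated groups overlapped one another and none reached the vehicle arrays, with differences of 1.70 ± 0.22, 1.54 ± 0.22 and 1.54 ± 0.22 (adjusted p 0.000618, 0.000866 and 0.000682, limma). In every group the first replicate was the higher of the 2.

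ZNF324 was read at 7.62 and 7.70 with largazole, 7.75 and 8.0 with SAHA and 8.48 and 8.68 with FK228, against 6.85 and 6.96 with vehicle. Its groups did not overlap between largazole and FK228 either, and the differences from vehicle were 0.75, 0.97 and 1.67. ZNF136 gave 5.90 and 5.79 with largazole, 6.30 and 6.08 with SAHA and 6.58 and 6.55 with FK228, against 5.23 and 5.21 with vehicle, which amounts to 0.63, 0.97 and 1.34. Both were read from probe sets open to cross-hybridisation. ZNF350, also called ZBRK1, encodes a repressor that binds BRCA1 and acts on GADD45A. ZNF350 rose by 0.52 with largazole, 0.65 with SAHA and 1.22 with FK228, and its vehicle arrays, at 4.48 and 4.66, lay next to the filter value.

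Other members also rose with each compound. ZNF530 rose by 0.91 ± 0.12, 1.06 ± 0.12 and 1.2 ± 0.12 with largazole, SAHA and FK228, while its other probe set gave -0.04, 0.35 and 0.44, of which only the last passed the test. ZNF222 rose by 0.98, 0.86 and 1.09, ZNF765 by 0.88, 1.07 and 0.96, ZNF555 by 0.83, 0.75 and 1.10, and ZNF266 by 0.89, 0.90 and 1.04, in the same order. ZNF440 rose by 0.94, 0.92 and 0.73 and ZNF211 by 0.78, 0.64 and 0.90. ZNF550 rose by 0.70, 1.22 and 1.07, and ZNF480 by 0.47, 1.28 and 1.14. The vehicle arrays of ZNF480, at 3.61 and 3.20, lay below the filter value, so its rise started from a level near background. The largazole call of ZNF480 was lost without either largazole array or the second vehicle array (adjusted p 0.0728 to 0.115, limma), and that of ZNF550 without the second largazole array (0.0534). ZNF333 rose by 0.63, 0.86 and 1.11, and its other probe set, at 0.14, 0.06 and 0.17, did not pass the test.

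**Figure D3:**
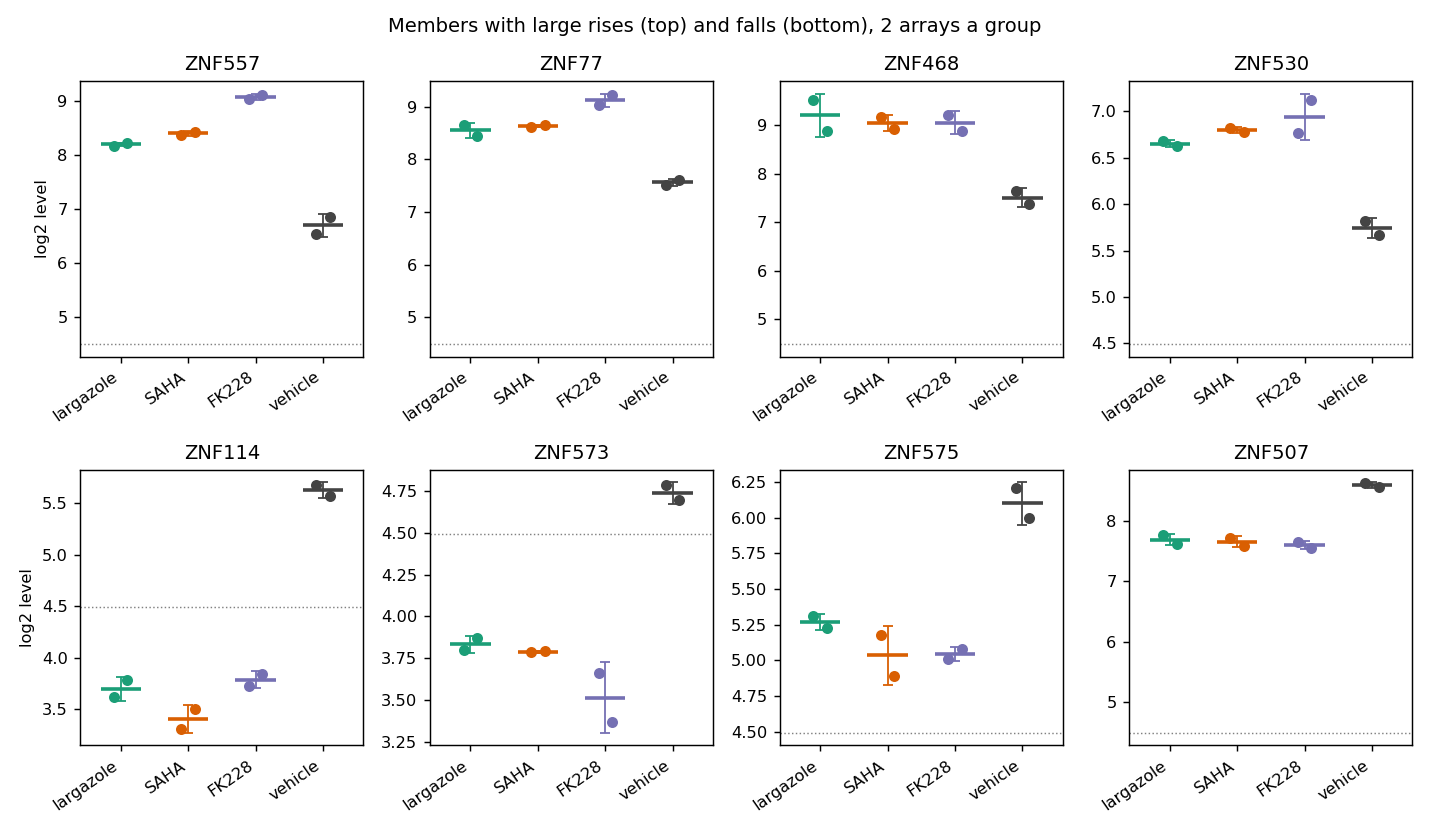
Points are the log2 levels of single arrays, 2 a group, in largazole, SAHA, FK228 and vehicle cultures, for 4 members with large rises (ZNF557, ZNF77, ZNF468 and ZNF530) and 4 with large falls (ZNF114, ZNF573, ZNF575 and ZNF507). Horizontal bars are group means, error bars the standard deviation and the dotted line the filter value of 4.49, and each panel has its own vertical scale. In all 8 panels the 6 treated arrays lie on 1 side of the 2 vehicle arrays.

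ZNF114 fell furthest with each compound. Its probe set read 3.62 and 3.78 with largazole, 3.31 and 3.50 with SAHA and 3.73 and 3.84 with FK228, against 5.68 and 5.58 with vehicle. All treated values were under the filter value, so the falls of 1.93, 2.22 and 1.84 on the log2 scale end near background. The other probe set of ZNF114 gave -2.34, -2.37 and -2.21. ZNF573 likewise ended below the filter value, at 3.80 and 3.87 with largazole, 3.79 and 3.79 with SAHA and 3.66 and 3.37 with FK228, against 4.78 and 4.69 with vehicle. ZNF573 fell by 0.90, 0.95 and 1.22. Both ZNF114 and ZNF573 passed the filter through their 2 vehicle arrays alone. They were thus admitted through the group where they were high, and their falls are not independent of the filter.

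ZNF575 stood at 5.31 and 5.23 with largazole, 5.18 and 4.89 with SAHA and 5.01 and 5.08 with FK228, against 6.20 and 6.00 with vehicle, and fell by 0.83, 1.07 and 1.06. No treated array of ZNF575 reached the vehicle arrays. ZNF738 fell by 0.75, 1.05 and 0.91, ZNF708 by 0.65, 0.59 and 0.78, and ZNF787 by 0.59, 0.69 and 0.89. ZNF444, a zinc finger protein of the SCAN class known as a regulator of the scavenger receptor gene SCARF1, fell by 0.68, 0.86 and 0.67. ZNF296 fell by 0.68 with largazole and 0.64 with SAHA, and its FK228 difference of -0.40 did not pass. Both calls of ZNF296 were lost without some single arrays (adjusted p 0.0522 to 0.0671, limma). ZNF507 fell by 0.90, 0.94 and 0.99 on the probe set used, but its other probe set gave 0.01, -0.07 and -0.43, none past the test, so the 2 probe sets of ZNF507 disagree. ZNF302 fell by 0.41, 0.43 and 0.93 on an _x_at or _s_at probe set, and the probe set that is neither gave 0.09, -0.08 and -0.11. The largazole calls of ZNF787 (adjusted p 0.0641 to 0.109, limma) and ZNF302 (0.0622 to 0.119) were lost when some single largazole or vehicle arrays were left out, and their SAHA calls when some single SAHA or vehicle arrays were (0.0503 to 0.0765).

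Across all members 49 had more than 1 tested probe set. Of the members called with largazole 23 had other probe sets, and in 18 of these all of them moved the same way. With SAHA this held in 25 of 26 and with FK228 in 26 of 27, and 0 of the called members in any comparison had another probe set called in the opposite direction. Among members with no call ZNF653 differed by 0.19, 0.00 and 0.22, and its other probe set was called lower with each compound (-0.59, -0.93 and -0.87). ZNF616 and ZNF320 had no call with FK228. There the other probe set of ZNF616 was called lower (-0.32, against 0.31 on the one used) and that of ZNF320 higher (0.25). ZNF616 rose with SAHA by 0.70 (adjusted p 0.0317, limma), and with the replicate block it also passed with largazole (0.0252). Its SAHA call was lost in some fits without 1 array, at differences of 0.54 to 0.74.

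Neighbours were grouped into runs, a run being broken wherever more than 5 protein-coding genes of other names separated consecutive ZNF genes. There were 24 runs, of which 8 held at least 5 members and 101 members together. The 2 runs described first were picked after their values were seen. In the run from ZNF628 to ZNF580, near the end of the long arm, the members fell. Of its 7 members 5 fell with largazole, 6 with SAHA and 6 with FK228, and 0 rose with any of them, beside 23.2%, 25.2% and 27.1% of all genes called lower. The medians were -0.44, -0.58 and -0.69, and on the probe sets used all 7 had means below vehicle with every compound. ZNF784 stood at 5.33 and 5.50 with largazole, 5.08 and 4.79 with SAHA and 4.99 and 4.92 with FK228, against 5.89 and 5.94 with vehicle. It fell by 0.50, 0.98 and 0.96, with no overlap of treated and vehicle arrays. Its largazole call was lost without the first largazole array (adjusted p 0.0703, limma) or the second vehicle array (0.0536).

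ZNF580 and ZNF581 encode short proteins with fingers and no KRAB box. ZNF580 measured 7.65 and 7.76 with largazole, 7.34 and 7.54 with SAHA and 7.27 and 7.49 with FK228, against 8.20 and 8.19 with vehicle. ZNF581 measured 8.25 and 8.40 with largazole, 8.29 and 8.41 with SAHA and 8.42 and 8.50 with FK228, against 8.85 and 8.96 with vehicle. Treated and vehicle arrays were apart in both, with falls of 0.49, 0.75 and 0.82 for ZNF580 and of 0.58, 0.55 and 0.44 for ZNF581. ZNF628 fell by 0.40, 0.64 and 0.81, and ZNF579 by 0.44, 0.58 and 0.69. ZNF524 differed from vehicle by -0.17, -0.45 and -0.29, of which the SAHA and FK228 values passed the test. ZNF865 was the only member of the run with no call, at -0.15, -0.33 and -0.43, and its FK228 arrays alone lay apart from the vehicle arrays. With the replicate block ZNF865 passed with SAHA and FK228 (adjusted p 0.0336 and 0.0107, limma). The other probe set of ZNF865 gave 0.11, 0.14 and 0.09, none past the test, so its 2 probe sets disagree in sign. Of 3 other expressed genes inside the run 0 rose, and NAT14 fell with SAHA by 0.50 and FIZ1 with FK228 by 0.51. Without the first largazole replicate 2 of the 7 members were called lower with largazole, and without the second vehicle replicate 3 were. In fits without 1 array the largazole calls of ZNF580 (adjusted p 0.0609) and ZNF579 (0.0633) were lost without the first largazole array, and that of ZNF628 without any of 5 arrays (0.0567 to 0.25). The FK228 calls of ZNF524 (0.0579 to 0.205) and FIZ1 (0.0556 to 0.142) and the SAHA call of NAT14 (0.116) were also lost in such fits.

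In the run from ZNF350 to ZNF765 the calls were almost all rises. Of its 15 members 8 rose with largazole, 9 with SAHA and 8 with FK228, beside 21.9%, 22.1% and 25.7% of all genes called higher. The only fall was that of ZNF614 with FK228 (-0.49, adjusted p 0.0343, limma). The medians were 0.49, 0.52 and 0.37. Besides ZNF350, ZNF480, ZNF468 and ZNF765, rises with each compound were seen in ZNF600 (0.76, 0.66 and 0.90), ZNF701 (0.53, 0.52 and 0.73) and ZNF611 (0.49, 0.50 and 0.57). ZNF83 rose with largazole by 0.52 and with SAHA by 0.54, and its FK228 difference of 0.32 did not pass. ZNF766, in the middle of the run, differed by 0.10, 0.23 and 0.15 and had no call. ZNF600, ZNF701, ZNF611 and ZNF83 were all read from probe sets open to cross-hybridisation. Leaving out the second vehicle replicate reduced the rises to 4 with largazole and 5 with SAHA, and leaving out either largazole replicate gave 5 with largazole. Single arrays likewise decided all 3 calls of ZNF611 (adjusted p up to 0.212, limma), the largazole and SAHA calls of ZNF701 (up to 0.179) and ZNF83 (up to 0.18), and the fall of ZNF614 (up to 0.185). With the replicate block ZNF83 passed with FK228 (0.00879) and ZNF766 with SAHA (0.0467).

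ZNF160, in the same run, encodes a KRAB protein described as a repressor of the receptor gene TLR4. It stood at 8.55 and 8.30 with largazole, 8.67 and 8.25 with SAHA and 8.63 and 8.40 with FK228, against 8.28 and 8.06 with vehicle. The largazole arrays lay above both vehicle arrays, 1 SAHA array lay below the higher vehicle array, and the differences of 0.25, 0.29 and 0.34 did not pass the test (adjusted p 0.268, 0.199 and 0.123, limma). In each group the first replicate was higher, and with the replicate number as a block ZNF160 passed with each compound (adjusted p 0.0399, 0.0239 and 0.0111). Its other probe set, of a lower mean level (4.20), gave 0.37, 0.97 and 1.39, of which the SAHA and FK228 values passed (adjusted p 0.00086 and 0.000105). With the mean of both probe sets ZNF160 was called with SAHA and FK228 (0.00443 and 0.000702) and between largazole and FK228 (0.0338).

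The other 6 runs held both rises and falls. Over all genes tested 21.9%, 22.1% and 25.7% were called higher and 23.2%, 25.2% and 27.1% lower. With largazole 16.7% of the run from ZNF565 to ZNF573 rose and 16.7% fell. In the run from ZNF101 to ZNF254 these shares were 25% and 16.7%. The difference of any run from all genes was not tested. The largest, from ZNF264 to ZNF446, had 26 members, with 9 rises and 2 falls for largazole, 9 and 3 for SAHA and 10 and 4 for FK228. ZNF324 was its highest member with FK228. ZNF544 fell by 0.51, 0.40 and 0.44, and ZNF586 fell by 0.55 with largazole and 0.47 with FK228 and differed by -0.03 with SAHA. Both calls of ZNF586 were lost without some single arrays (adjusted p 0.0626 to 0.147, limma). In the run from ZNF653 to ZNF791, with 11 members, 6 rose and 1 fell with largazole, 5 and 1 with SAHA, and 6 and 2 with FK228. ZNF440 and ZNF136 rose there while ZNF627 fell by 0.45, 0.51 and 0.64. The run from ZNF101 to ZNF254 had 12 members, with 3 rises and 2 falls for each compound. ZNF101 rose by 0.64, 0.56 and 0.73, ZNF14 by 0.43, 0.62 and 0.73, and ZNF708 and ZNF738 fell. In the run from ZNF283 to ZNF180, also of 12, the rises numbered 3, 4 and 6 and the falls 0, 1 and 3 with largazole, SAHA and FK228. The replicate block raised its SAHA rises to 7. ZNF226 fell with FK228 by 0.62. ZNF284 fell with SAHA by 0.71, to 4.06 and 3.85, under the filter value. That call of ZNF284 was lost without the second SAHA or the first vehicle array. The largazole call of ZNF14 was lost without the first largazole or the second vehicle array. The run from ZNF565 to ZNF573 had 12 members and at most 3 rises and 2 falls. ZNF567 rose there by 0.74, 0.81 and 0.53, and ZNF573 fell. The FK228 call of ZNF567 was lost without the first FK228 array (adjusted p 0.0714, limma) or the second vehicle array (0.0753).

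**Figure D4:**
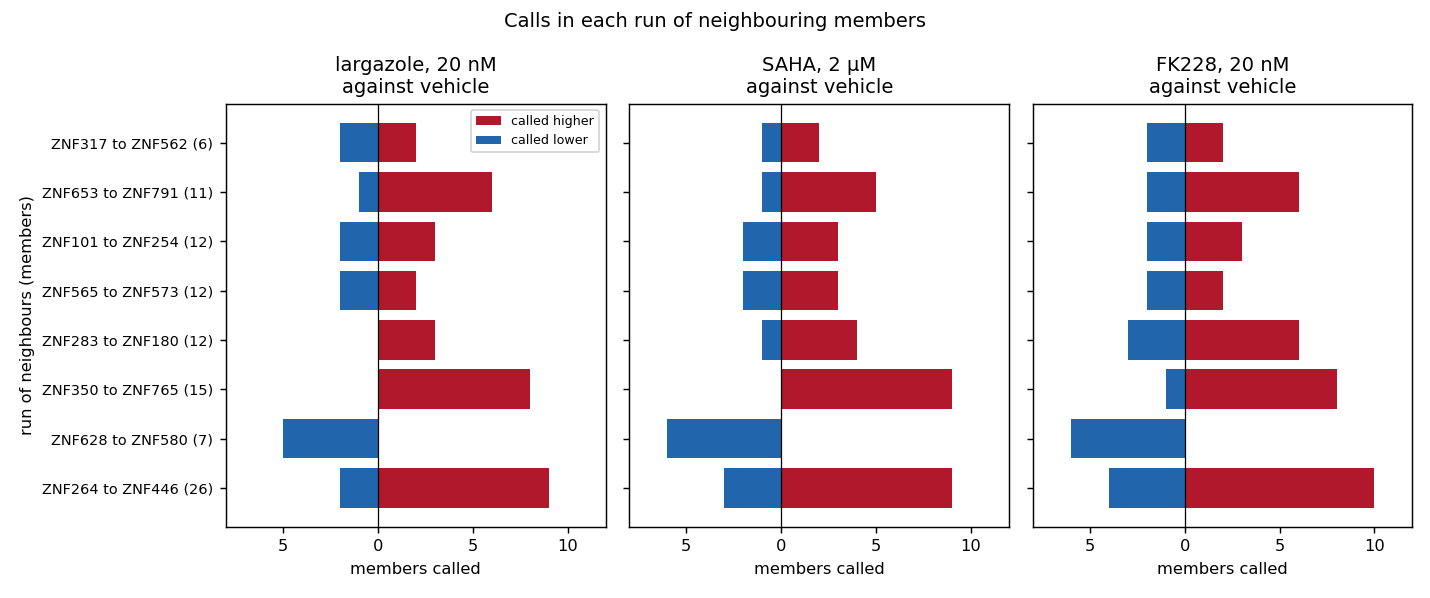
For each run of neighbours, listed in chromosome order with its number of members in brackets, bars to the right count the members called higher than vehicle and bars to the left those called lower, in 1 panel per compound. The run from ZNF350 to ZNF765 has 8, 9 and 8 members to the right, and the run from ZNF628 to ZNF580 has 5, 6 and 6 to the left and 0 to the right.

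Promoters from RefSeq (GRCh38.p14, 250 bases before to 50 after the gene start, the most upstream window of a gene) were matched for 118 of the 129 members. Of 8 short motifs searched on both strands, none of which contains another, CCGGAAG, the core bound by ETS factors, was found in 42.4% of the members' promoters, against 10.6% of all 27305 promoters of the same length and 18.1% of those of all genes tested. Among ZNF genes on other chromosomes the share was 41%. CCAAT was found in 50% of the members' promoters, against 35.7% of all promoters and 36.4% of those of all genes tested. Among ZNF genes on other chromosomes its share was 42.4%. The GC box GGGCGG was found in 67.8%, against 44.5% of all and 68.8% of those of genes tested, so its share was close to that of the genes tested. TATAAA was found in 2.54%, against 12% and 5.91%. A match describes these letters in this window and is not evidence of binding. The runs differed in their motifs. All 11 matched promoters of the run from ZNF101 to ZNF254 held CCAAT, as did 10 of 11 in the run from ZNF653 to ZNF791. In the run from ZNF264 to ZNF446 18 of 24 held CCGGAAG. All 6 in the run from ZNF628 to ZNF580 held GGGCGG. So did 10 of 11 in the run from ZNF653 to ZNF791 and 4 of 5 in that from ZNF317 to ZNF562. The promoters of ZNF557 (CCGGAAG in capitals), ZNF468 and ZNF784 (GGGCGG or its reverse complement in capitals) are shown as those of the largest rises and of a member of the falling run.
ZNF557, chr19:7069453-7069752, plus strand: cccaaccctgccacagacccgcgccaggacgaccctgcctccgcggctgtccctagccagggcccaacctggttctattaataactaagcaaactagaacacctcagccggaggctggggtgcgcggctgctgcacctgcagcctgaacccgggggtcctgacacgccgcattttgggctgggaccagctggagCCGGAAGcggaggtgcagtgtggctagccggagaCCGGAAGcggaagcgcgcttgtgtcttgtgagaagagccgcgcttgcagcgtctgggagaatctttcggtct
ZNF468, chr19:52857570-52857869, minus strand: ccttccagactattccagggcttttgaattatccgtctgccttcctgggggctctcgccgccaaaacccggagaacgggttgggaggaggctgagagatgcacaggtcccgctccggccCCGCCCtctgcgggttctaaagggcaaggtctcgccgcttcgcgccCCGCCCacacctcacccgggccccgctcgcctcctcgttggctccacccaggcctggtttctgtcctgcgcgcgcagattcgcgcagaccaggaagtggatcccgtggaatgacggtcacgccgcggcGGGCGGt
ZNF784, chr19:55624517-55624816, minus strand: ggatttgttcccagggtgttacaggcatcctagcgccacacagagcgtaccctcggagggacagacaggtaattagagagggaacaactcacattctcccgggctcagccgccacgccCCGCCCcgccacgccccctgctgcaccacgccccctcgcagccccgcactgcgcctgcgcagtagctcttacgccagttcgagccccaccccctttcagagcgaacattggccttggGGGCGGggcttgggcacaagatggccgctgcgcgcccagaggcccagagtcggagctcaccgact

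The share with CCGGAAG was 44.1% among members that rose with largazole and 30.4% among those that fell. With SAHA it was 47.2% and 31.8%, and with FK228 43.6% and 30.8%. These rest on 34 and 23, 36 and 22, and 39 and 26 promoters, and the difference was not tested.

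The palindrome TGACGTCA, the full cAMP response element, was found in 4 of the 118 promoters, and all 4 belong to the run from ZNF317 to ZNF562, of which 5 promoters were matched. The members' share of 3.39% was close to the 3.09% of genes tested, and the share of all promoters was 1.97%. The stretches around it are shown, with the palindrome in capitals, because the 4 genes share it and their transcripts did not move together.
ZNF266, chr19:9435563-9435610, minus strand: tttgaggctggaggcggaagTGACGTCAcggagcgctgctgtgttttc
ZNF426, chr19:9538639-9538686, minus strand: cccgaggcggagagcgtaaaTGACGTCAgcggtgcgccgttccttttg
ZNF121, chr19:9584527-9584574, minus strand: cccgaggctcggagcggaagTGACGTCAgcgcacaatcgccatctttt
ZNF562, chr19:9675080-9675127, minus strand: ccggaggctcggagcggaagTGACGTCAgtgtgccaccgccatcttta

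The stretches of ZNF121 and ZNF562 were identical at 41 of 48 positions, and the other pairs at 25 to 31. These counts include the 8 bases of the palindrome, on which the stretches were lined up. ZNF266 stood at 8.35 and 8.07 with largazole, 8.18 and 8.26 with SAHA and 8.33 and 8.40 with FK228, against 7.33 and 7.31 with vehicle. ZNF121 stood at 10.04 and 10.01 with largazole, 9.90 and 9.90 with SAHA and 9.56 and 9.77 with FK228, against 10.41 and 10.32 with vehicle. Treated arrays were thus above vehicle for ZNF266 and below it for ZNF121, without overlap, by 0.89, 0.90 and 1.04 for the one and by -0.34, -0.46 and -0.70 for the other. ZNF562 differed by -0.32, -0.28 and -0.58, with calls for largazole and FK228. With the replicate block ZNF562 also passed with SAHA (adjusted p 0.031, limma). The largazole calls of ZNF121 (0.0534 to 0.115) and ZNF562 (0.109 to 0.15) were lost without any single largazole or vehicle array. ZNF426 differed by 0.02, 0.27 and 0.32, none past the test, and its vehicle arrays, at 5.52 and 6.15, were far apart. The other probe set of ZNF426 rose by 0.67, 0.54 and 0.61.

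Members of the run from ZNF101 to ZNF254 carry a CCAAT box, shown for 4 of them with the box in capitals.
ZNF101, chr19:19668749-19668793, plus strand: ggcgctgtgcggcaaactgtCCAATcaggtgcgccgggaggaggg
ZNF85, chr19:20923150-20923194, plus strand: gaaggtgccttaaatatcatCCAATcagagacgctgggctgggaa
ZNF708, chr19:21329417-21329461, minus strand: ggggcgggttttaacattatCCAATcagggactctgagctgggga
ZNF91, chr19:23395505-23395549, minus strand: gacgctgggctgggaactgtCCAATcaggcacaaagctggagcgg
Of these ZNF101 rose and ZNF708 fell with each compound, and ZNF85 and ZNF91 had no call. The stretches of ZNF85 and ZNF708 were identical at 32 of 45 positions, and the other pairs at 20 to 29. Here too the 5 bases of the box, on which the stretches were lined up, are counted.

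Members with a described target were looked at as a panel of 16 genes, of which 10 were expressed. ZNF91 and ZNF93 bind and repress SVA and LINE-1 retrotransposons of primates. ZNF91 stood at 7.29 and 7.16 with largazole, 7.26 and 6.86 with SAHA and 7.36 and 7.13 with FK228, against 7.21 and 7.33 with vehicle. ZNF93 stood at 4.77 and 4.89, 5.05 and 4.97, and 5.04 and 4.77 with largazole, SAHA and FK228, against 4.82 and 4.69 with vehicle. The largazole and FK228 arrays overlapped the vehicle arrays in both genes, and neither passed the test with any compound. The differences were -0.05, -0.21 and -0.03 for ZNF91 and 0.07, 0.26 and 0.15 for ZNF93. ZNF43, ZNF85 and ZNF671 had no call either, with differences between -0.18 and 0.22.

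ZNF274 binds the ends of other zinc finger genes and brings SETDB1 to them. It measured 7.87 and 7.91 with largazole, 7.85 and 7.78 with SAHA and 7.77 and 7.82 with FK228, against 7.39 and 7.40 with vehicle. Its treated arrays were all above vehicle, and it rose by 0.50 ± 0.08, 0.42 ± 0.08 and 0.40 ± 0.08 (adjusted p 0.0017, 0.00341 and 0.00339, limma). ZNF224, a repressor of the aldolase gene ALDOA and a partner of WT1, rose by 0.29, 0.53 and 0.52. Another probe set of ZNF224 gave 0.12, 0.26 and 0.41, of which only the last passed the test. A further probe set gave 0.49, 0.31 and 0.51, none past it. The largazole call of ZNF224 was lost without any single largazole, SAHA or vehicle array (adjusted p 0.0597 to 0.211, limma). ZNF304 rose with FK228 by 0.54, and its largazole and SAHA differences were 0.13 and 0.26, neither past the test. That call was lost without the second vehicle array (adjusted p 0.0638, limma). ZNF208, ZNF257, ZNF331, ZNF382, ZNF568 and ZNF675 were below the filter.

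A list of 26 corepressor and related silencing genes, all expressed, was also followed, and more of them fell than rose. Besides TRIM28 and SETDB1 it holds genes with wider roles in silencing, such as SUV39H1, ATRX, DAXX and DNMT1. The counts therefore do not describe the KRAB pathway alone. With largazole 5 rose and 11 fell, with SAHA 5 and 13, and with FK228 3 and 14, with medians of -0.21, -0.32 and -0.35. These are 19.2% and 42.3%, 19.2% and 50%, and 11.5% and 53.8% of the list, beside 21.9% and 23.2%, 22.1% and 25.2%, and 25.7% and 27.1% of all genes. Without the first largazole array 2 rose and 7 fell with largazole, without the second 3 and 7, without the first vehicle array 4 and 6, and without the second 3 and 9. With SAHA 3 rose without the first SAHA array or the second vehicle array, and with FK228 5 rose without the first vehicle array. SETDB1, the methyltransferase recruited by TRIM28, stood at 6.31 and 6.37 with largazole, 6.02 and 6.14 with SAHA and 6.05 and 5.86 with FK228, against 7.21 and 7.16 with vehicle. No treated array of SETDB1 overlapped the vehicle arrays, and it fell by 0.85, 1.10 and 1.23 (adjusted p 0.000337, 8.47e-05 and 3.31e-05, limma). TRIM28 itself differed by -0.11 with largazole (adjusted p 0.383) and fell by 0.40 with SAHA and 0.35 with FK228. SUV39H1, another H3K9 methyltransferase, fell by 0.63, 0.80 and 1.10. TASOR, a subunit of the HUSH silencing complex, fell by 0.72, 0.90 and 0.96. MPHOSPH8, the chromodomain subunit of the same complex, rose by 0.32, 0.42 and 0.44. ATRX and DAXX, which together deposit histone H3.3, fell, ATRX by 0.44, 0.65 and 0.80 and DAXX by 0.56, 0.79 and 0.92. MORC2, an ATPase that works with HUSH, rose by 0.51, 0.47 and 0.66, and TRIM24, a relative of TRIM28, by 0.79, 0.89 and 0.89. Fits without 1 array lost the FK228 (adjusted p up to 0.0855, limma) and SAHA (0.0529) calls of TRIM28, the largazole (up to 0.17) and SAHA (0.0581) calls of MPHOSPH8 and the largazole call of ATRX (up to 0.0543).

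Largazole and FK228 were given at the same dose and for the same time, and this was the 1 pair of compounds compared directly, with p-values adjusted over all probe sets of that comparison. Few members differed between them. At the same threshold 4 of the 129 members were higher with largazole (3.1%) and 7 lower (5.43%), beside 4.88% and 4.19% of all genes, and 8.53% were called in either direction beside 9.07%. None differed by 2-fold. Over all 13381 genes tested 59 were called and at least 2-fold higher and 11 at least 2-fold lower. That is a small share too, so the count is not particular to the members. The median over the members was -0.06 and that over all genes 0.00. Largazole is a single macrocycle carrying a thioester side chain, and FK228 is a bicycle closed by a disulfide. SAHA was given at another dose, and its values are set beside theirs without comparison.

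The 7 members lower with largazole were ZNF324, ZNF557, ZNF57, ZNF136, ZNF350, ZNF480 and ZNF77. ZNF57 stood at 7.66 and 7.72 with largazole and 8.40 and 8.57 with FK228, with 7.61 and 7.56 in vehicle arrays and 7.81 and 7.75 in SAHA arrays. Its FK228 arrays were apart from all others, and the largazole minus FK228 difference was -0.80 (95% interval -1.0 to -0.59, adjusted p 0.0048, limma). For ZNF557 that difference was -0.88 (-1.14 to -0.62, adjusted p 0.00703), and for ZNF324 it was -0.92 (-1.19 to -0.65, adjusted p 0.00703). ZNF136 differed by -0.72, ZNF350 by -0.70, ZNF480 by -0.67 and ZNF77 by -0.57.

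The 4 members higher with largazole were ZNF112, ZNF700, ZNF302 and ZNF227, by 0.66, 0.54, 0.51 and 0.49. ZNF700 fell with FK228 by 0.69 against vehicle. ZNF700 stood at 7.02 and 7.01 with largazole and 6.48 and 6.46 with FK228, with 7.31 and 7.02 in vehicle arrays. ZNF227 stood at 8.36 and 8.40 with largazole and 7.91 and 7.88 with FK228, with 8.43 and 8.30 in vehicle arrays. In both genes the FK228 arrays lay below all largazole and vehicle arrays. The FK228 arrays of ZNF112, at 5.53 and 5.05, were far apart, against 5.96 and 5.93 with largazole.

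ZNF468 and ZNF114, which moved far against vehicle, had no call between largazole and FK228, with differences of 0.16 (95% interval -0.35 to 0.66) and -0.09 (-0.34 to 0.16). The interval of ZNF468 leaves room for differences of the size called in some other members, and that of ZNF114 does not. ZNF333 and ZNF14, at -0.49 and -0.31, were not called, but passed with the replicate number as a block (adjusted p 0.0163 and 0.0373), and ZNF333 also passed with equal medians of ribosomal protein genes (0.0473). Most or all calls of members between largazole and FK228 were lost in fits that left 1 largazole array. Fewer members were called in fits that left 1 FK228 array too. Over all genes tested the calls also became far fewer in the same fits, so the loss was not particular to the members.

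**Figure D5:**
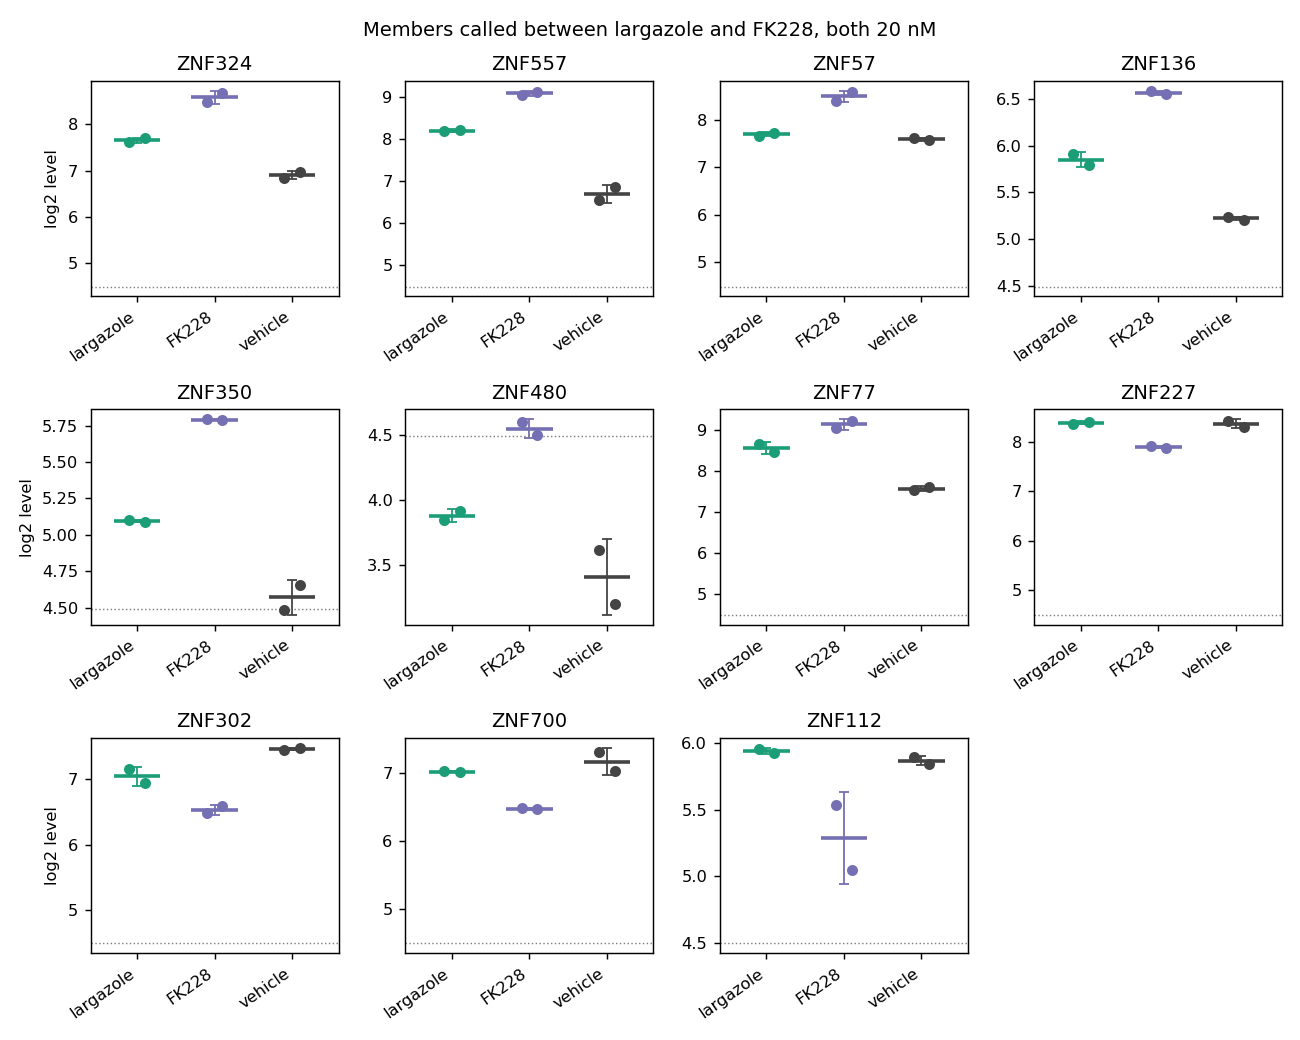
Points are the log2 levels of single arrays in largazole, FK228 and vehicle cultures, 2 a group, for the 11 members called between largazole and FK228. Horizontal bars are means, error bars the standard deviation and the dotted line the filter value, and each panel has its own vertical scale. The first 7 panels are members lower with largazole, and in all 11 the largazole and FK228 arrays do not overlap.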

How the data were processed

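RNA of HCT116 cultures was measured on 8 arrays, 2 for each of 4 groups taken from the labels. The deposited values are log2 probe set levels, from 1.71 to 14.67. Per the submitters' processing notes the tools were affy, RMA and limma. Those notes name neither roles nor versions. Of 54613 probe sets 28985 passed the filter (the second highest value at or above 4.49) and entered 1 linear model per probe set (limma 3.58.1, R 4.3.3), in which the 4 groups shared an estimate of the spread (4 residual and 3.69 prior degrees of freedom). P-values were Benjamini-Hochberg adjusted over all of them, and an adjusted p under 0.05 was called. A gene was its probe set with 1 symbol and the highest mean. Tables and figures were made in Python 3.11.15 with pandas 2.3.3 and matplotlib 3.10.9.

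The members and lists were chosen with earlier results of these data known. Genes named are the 10 largest rises and falls per compound among called members without overlap of arrays, up to 5 each way between largazole and FK228, the highest and lowest called member of each run, the panel and the corepressor list. Other members of the runs from ZNF317 to ZNF562, ZNF350 to ZNF765 and ZNF628 to ZNF580, the 2 remaining members called between largazole and FK228, ZNF653, ZNF616, ZNF320 and genes inside the runs were named after their values were seen. ZNF429 and ZNF850 were named because only their largazole arrays reached the filter value. Protein features were planned and were not used here. RefSeq gave names, gene order and promoters.

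Replicates with the same number deviated together (correlation of deviations 0.128 to 0.268 over the 6 pairs of groups). The fit with the replicate number as a block is therefore given where it changes a call described here. Tested on simulated data for the comparison of largazole with vehicle over 28985 probe sets, the fit recovered 0 of 50 probe sets changed 1.2-fold, 17 of 50 that changed 1.5-fold, 35 of 50 that changed 2-fold and 48 of 50 that changed 4-fold. Of its 106 calls 6 were false. In the measured arrays 45.2% of 13381 genes were called with largazole, among them ZNF791 at 1.21-fold (adjusted p 0.0426, limma). The recovery figures hold for 50 changed probe sets of each size among 28985. Recovery with as many genes called as in the measured arrays was not tested. Alternatives were other filters, an intensity trend, the block, 2 other scalings, other choices of probe set, fits of only the 4 arrays of a comparison and fits without 1 array.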

Additional observations from a re-analysis of the deposited data

How the results depend on the processing

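The counts of members called against vehicle stayed within 1.5 times their reported values under the other settings tried, except as follows. Under the stricter filter at 6.87, which left 57 members to test, falls numbered 14 with largazole and 14 with SAHA, and with FK228 29 members rose and 18 fell. The members higher with largazole than with FK228 numbered 2 with no filter on low values, 2 without _x_at and _s_at probe sets and 2 with only the 4 arrays compared. Leaving out single arrays gave 26 to 38 rises and 14 to 25 falls with largazole, 31 to 44 and 19 to 27 with SAHA, and 40 to 45 and 24 to 30 with FK228. For largazole against FK228 it gave 0 to 4 higher and 0 to 7 lower. The paired fit, with the replicate block, gave 45 rises and 25 falls with largazole, 50 and 29 with SAHA, 48 and 34 with FK228, and 6 higher and 10 lower in largazole against FK228. The calls that it changed in members named by rule were those of ZNF160, ZNF333 and ZNF14. Among the corepressor genes it added EHMT1 with largazole and SAHA (adjusted p 0.0304 and 0.038, limma), MORC3 with largazole and FK228 (0.00314 and 0.00369), ATF7IP and PPHLN1 with FK228 (0.0364 and 0.00782), and CBX3 and SETDB1 in largazole against FK228 (0.0458 and 0.0493). ZNF302 with largazole changed sign without _x_at and _s_at probe sets, at 0.0903 (adjusted p 0.669, limma). On those probe sets ATF7IP was also reversed, at -0.3227 with SAHA, -0.4921 with FK228 and 0.4075 for largazole against FK228, the last also with the mean of all probe sets (0.3379). With that mean CBX5 was reversed with largazole (-0.4953) and EHMT2 with FK228 (0.0942). Counts in single runs moved by over 1.5 times in 2 to 10 of 48 fits without 1 array per run. With equal medians of ribosomal protein genes, the all-gene calls between largazole and FK228 were 527 higher and 717 lower, beside 653 and 561 as deposited, and those of the members 4 and 8 beside 4 and 7. The cause of these changes was not tested, apart from the smaller number of members or arrays that the alternative itself leaves. No depth is known for arrays. Low signal limits members whose levels in some groups lay under the filter value. Among them are ZNF114, ZNF573, ZNF480, ZNF333, ZNF284, ZNF616, ZNF429 and ZNF850. Of these, ZNF114 and ZNF573 passed the filter through vehicle arrays alone. ZNF480, ZNF333, ZNF616, ZNF429 and ZNF850 passed it through treated arrays alone. The counts of falls and rises include their calls.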

Other observations

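Some zinc finger genes inside the runs have names with a letter or another stem and were therefore no members. They were chosen after their values were seen. ZNF587B, in the run from ZNF264 to ZNF446, fell by 1.17 ± 0.15 with largazole, 1.23 ± 0.15 with SAHA and 1.70 ± 0.15 with FK228 (standard error, adjusted p 0.000704, 0.000489 and 6.96e-05, limma), while its neighbour of the same name stem, ZNF587, is among the members. ZFP30, in the run from ZNF565 to ZNF573, fell by 0.87, 0.80 and 1.44 (± 0.10 each). ZNF585A, in the same run, rose by 0.43, 0.56 and 0.36, and its neighbour ZNF585B, at 0.29, 0.24 and -0.04, had no call. The pseudogene ZNF137P, inside the run from ZNF350 to ZNF765, rose by 0.55, 0.65 and 1.24 (± 0.17 each). Fits without 1 array lost the FK228 call of ZNF585A (adjusted p up to 0.0603, limma), the largazole (up to 0.17) and SAHA (up to 0.0846) calls of ZNF137P, and the FK228 call of PPP2R1A (up to 0.176). In that run PPP2R1A, the scaffold subunit of protein phosphatase 2A, differed by -0.28 with largazole, which was not called (adjusted p 0.0976, limma) but passed with the replicate block (0.038) and with an intensity trend (0.0489), and fell by 0.61 with SAHA and 0.37 with FK228. ELOF1, a transcription elongation factor gene inside the run from ZNF653 to ZNF791, rose by 0.87, 1.02 and 1.35.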
